A study of Mus musculus with 12 samples.

Results

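The effect of losing p53 on liver transcripts was measured as the difference between p53 ko and p53 wt livers averaged over a normal diet and HFD (high-fat diet). All 12 libraries of the series entered it, 6 ko and 6 wt, as did all 14433 genes that passed the filter on low counts out of the 52636 listed. The libraries were total RNA from the liver of C57BL/6 mice aged 12 weeks and formed 4 groups of 3: wt on normal diet (wt_normal), ko on normal diet (ko_normal), wt on HFD (wt_HFD) and ko on HFD (ko_HFD). The labels name neither the knockout allele nor the cells that lack it, and give no sex, no duration of feeding and no hour of sampling. Whether the 3 libraries of a group stem from different mice is not stated either, so each p-value measures only how far these libraries scatter, which may be partly technical.

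p53, encoded by Trp53, is a transcription factor that is held at a low level by the ubiquitin ligase Mdm2 and accumulates under DNA damage and other stress. It binds response elements built from pairs of a short half-site and raises genes of growth arrest, DNA repair and cell death, of which the cell cycle inhibitor Cdkn1a (p21) is the best known. In the liver it has also been tied to lipid and sugar metabolism, and the title of the series names the cholesterol synthesis enzyme squalene epoxidase, Sqle, as a gene under its control.

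Levels are given in CPM, read counts scaled by edgeR to a common library size, which compare libraries but not genes, since gene length is not taken into account. A gene is called changed where the p of edgeR's quasi-likelihood test, adjusted by Benjamini-Hochberg across the tested genes, was under 0.05, and each difference is a log2 change of ko against wt, the mean of the changes on the 2 diets, with its standard error (SE). Total counts per library ran from 15465187 to 20492567. Library wt_normal replicate 2 stood apart: skeletal muscle genes made up 1.16% of it and no more than 0.00152% of each other library, and its markers of B cells and adipocytes were also the highest. The share of counts from the mitochondrial genome was 14.2% in ko_normal replicate 1 and 4.01% to 9.98% elsewhere. Immediate early genes summed to 2364 CPM in wt_HFD replicate 3 and to 257 to 659 CPM in the other 11 libraries.

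Between ko and wt livers 168 of the 14433 genes were called (1.16%), of which 114 were higher in ko livers (0.79%) and 54 lower (0.374%). Before adjustment for multiple testing, 2700 genes had p under 0.05. A log2 change above 0 was found for 6968 of the 14433 genes. The counts of each gene list below stand beside these shares. The rises had a median log2 change of 0.95 and the falls one of -1.31, and 91 of the 168 genes changed by more than 2-fold, 54 of them higher and 37 lower. The ko and wt libraries did not overlap on either diet for 129 of the called genes, 85 higher and 44 lower, as against 503 of all 14433 genes (3.49%). Scaled by library totals alone, 126 genes were called and 47.6% of them were higher, compared with 67.9% here. That scaling moved the median log2 change of all genes from -0.01 to -0.08. The number called depended on single libraries. Leaving out ko_normal replicate 3 gave 45 calls, wt_normal replicate 3 gave 55 and wt_normal replicate 2 gave 63. Leaving out ko_HFD replicate 3 gave 64, wt_HFD replicate 3 gave 68, ko_HFD replicate 2 gave 72 and ko_normal replicate 1 gave 80. Leaving out wt_HFD replicate 2 gave 99 and wt_HFD replicate 1 gave 254. With wt_normal replicate 2 and ko_normal replicate 1 both left out, 48 genes were called, of which 44 were among the 168.

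Trp53 itself was at 16.3, 14.5 and 15.6 CPM in the wt_normal libraries and at 8.54, 10.7 and 24.5 CPM in wt_HFD. In ko_normal it was at 1.62, 0.399 and 0.273 CPM, and in ko_HFD at 0.701, 0.748 and 0.752 CPM. All 6 ko libraries thus lay below all 6 wt libraries, as their labels have it, with a log2 change of -4.33 (SE 0.39, adjusted p = 0.000411). On the log2(CPM + 1) scale the difference was -3.17, with a two-sided exact permutation p of 0.005, the smallest that shuffling genotypes within each diet can give. Of the 100 genes annotated nearest to Trp53, 50 on each side on chromosome 11, 54 were tested and none was called, with a median log2 change of -0.13.

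Of 36 tested p53 target genes, 2 fell and none rose by edgeR. Before adjustment 11 had p under 0.05 by edgeR, as had 2700 of all 14433 genes. DESeq2 and voom each called 5 lower, and edgeR without the filter on low counts called 7 lower. Over all genes these 3 called 349 lower of 26011, 396 of 14433 and 329 of 26294. The median log2 change of the 36 targets was -0.25, against -0.01 over all genes tested, and 13 of the 36 had a change above 0. Cdkn1a, which blocks cyclin-dependent kinases, was at 31.9, 33.3 and 115 CPM in wt_normal and at 0.811, 3.05 and 0.872 CPM in ko_normal. On HFD it was at 10, 13.7 and 76.6 CPM in wt and at 1.23, 2.48 and 4.14 CPM in ko. The third wt library was the highest on each diet, and no ko library reached the lowest wt library. Its log2 change was -4.45 (SE 0.63, adjusted p = 0.00666), and the call held whichever library was left out.

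Aen, a nuclease induced in p53-dependent cell death, was the other target that fell. It was at 12.5, 14.7 and 10.1 CPM in wt_normal against 3.13, 5.69 and 6.11 CPM in ko_normal, and at 10.3, 9.87 and 13.9 CPM in wt_HFD against 7.65, 4.84 and 6.21 CPM in ko_HFD. Every ko library lay below every wt library. With a log2 change of -1.09 (SE 0.20, adjusted p = 0.0245) it was called in 8 of the 12 fits that left out 1 library, losing its call without wt_normal replicate 2, wt_HFD replicate 3, ko_HFD replicate 2 or ko_HFD replicate 3.

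The sequence before the start of both genes is shown because p53 half-sites lie in it. The following 250 bases before 1 of the 2 listed starts of Cdkn1a (chr17:29090729-29090978, plus strand) and 1 of the 2 of Aen (chr7:78895808-78896057, plus strand) are from RefSeq on build GRCm38.p6, 5′ to 3′, with the half-sites in capitals.
Cdkn1a: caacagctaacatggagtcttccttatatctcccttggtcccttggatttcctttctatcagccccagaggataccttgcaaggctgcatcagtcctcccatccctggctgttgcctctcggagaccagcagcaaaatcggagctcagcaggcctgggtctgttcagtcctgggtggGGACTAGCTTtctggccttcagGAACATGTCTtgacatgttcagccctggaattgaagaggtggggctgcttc
Aen: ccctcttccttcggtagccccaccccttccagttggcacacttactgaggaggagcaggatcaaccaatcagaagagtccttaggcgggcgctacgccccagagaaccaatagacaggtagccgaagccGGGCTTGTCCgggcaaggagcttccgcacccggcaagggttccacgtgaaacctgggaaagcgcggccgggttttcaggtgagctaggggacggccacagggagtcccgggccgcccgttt
Cdkn1a held 2 half-sites in this window and none in the window of its other start, and Aen held 1. The consensus p53 half-site was searched on both strands, matches allowed to overlap, in windows from 250 bases before to 50 after each start. Of the 168 called genes, 117 had such a window. The half-site was present for 5 of 38 called genes that were lower (13.2%), namely Aen, Cdkn1a, Fam167b, Rgs5 and Trp53, and for 13 of 79 that were higher (16.5%). It was present for 877 of the 10517 tested genes with a window (8.34%) and for 9.55% of all 27025 genes of the table. The E-box CACGTG, the same on both strands, was found for 13.2% of the lower and 10.1% of the higher genes, and for 11.6% of the tested genes. These matches describe letters in a window and not binding.

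The other targets with the smallest p did not pass the test. Trp53inp1, a stress-induced p53 target, was at 51.3 to 86.9 CPM in wt_normal and 22.2 to 23.8 CPM in ko_normal, but at 32.1 to 235 CPM in wt_HFD and 18.0 to 58.0 CPM in ko_HFD (log2 change -1.53, adjusted p = 0.0893). Ccng1, encoding cyclin G1, gave -0.99 (adjusted p = 0.0969). The antiproliferative gene Btg2 gave -1.97 (adjusted p = 0.111), with 155 CPM in wt_HFD replicate 3 and at most 20.3 CPM in every other library. Ddit4, an inhibitor of mTOR signalling, gave -1.17 (adjusted p = 0.126). Mdm2, the ligase that degrades p53, was at 21.5 to 30.4 CPM in wt libraries and 17.1 to 23.0 CPM in ko libraries (log2 change -0.34, adjusted p = 0.128). Bax, Fas and Pmaip1, which act in cell death, had log2 changes of -0.27, -0.23 and 0.08. Among 13 regulators and relatives of p53 edgeR called none, and their median was -0.01. Of the 13, 2 had an unadjusted p under 0.05, as had 2700 of all 14433 genes.

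**Figure D1:**
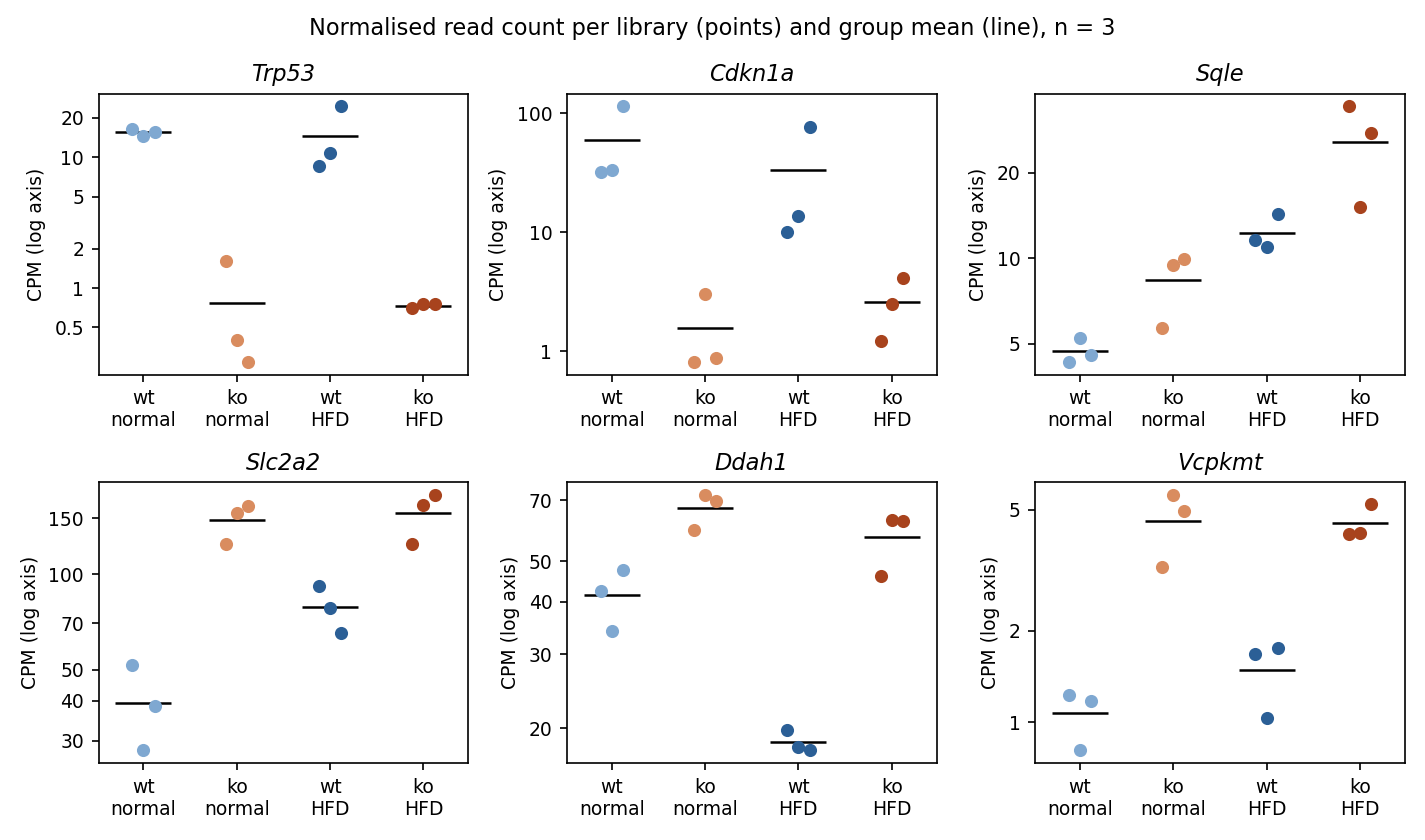
CPM on a log axis in each of the 12 libraries (points) for Trp53, Cdkn1a, Sqle, Slc2a2, Ddah1 and Vcpkmt, in 4 groups of 3, with the mean of each group as a line. Trp53 and Cdkn1a lie lower in every ko library than in every wt library of the same diet, and the other 4 genes lie higher.

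In cholesterol synthesis 5 of 20 tested genes rose and none fell. The median log2 change was 0.42 and 15 of the 20 were above 0, against 48.3% of all genes tested. Sqle, which oxidises squalene in the first oxygenation step of sterol synthesis, was at 4.31, 5.24 and 4.55 CPM in wt_normal and at 5.68, 9.48 and 9.92 CPM in ko_normal. On HFD it was at 11.5, 10.9 and 14.3 CPM in wt and at 34.2, 15.1 and 27.5 CPM in ko. Every ko library lay above the wt libraries of its diet, although the wt_HFD libraries were all higher than the ko_normal libraries. Averaged, Sqle rose 1.93-fold, a log2 change of 0.95 (SE 0.21, adjusted p = 0.0474), made up of 0.83 (SE 0.30) on normal diet and 1.06 (SE 0.29) on HFD.

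The call of Sqle was close to the threshold. It held in 2 of the 12 fits that left out 1 library, those without ko_normal replicate 1 or ko_HFD replicate 2, while its log2 change stayed between 0.83 and 1.09 over all the alternatives. In the exact permutation test within diets, other genes enter only through the scaling of CPM. The difference in that test was 0.81 on the log2(CPM + 1) scale with a two-sided p of 0.005, the smallest of its 400 arrangements. Any gene without overlap in the same direction on both diets gets this p, and 503 of all 14433 genes (3.49%) had no such overlap. The p is not adjusted for multiple testing, and it restates the separation of the Sqle libraries given above.

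Msmo1, which removes methyl groups from lanosterol products, was at 9.60, 12.0 and 14.6 CPM in wt_normal and at 25.0, 20.7 and 25.7 CPM in ko_normal. It was at 43.7, 37.8 and 49.7 CPM in wt_HFD and at 68.4, 49.9 and 62.4 CPM in ko_HFD. The genotypes were apart on each diet, narrowly on HFD, and the log2 change was 0.72 (adjusted p = 0.0294).

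Nsdhl, another enzyme of the demethylation, was at 6.90 to 7.71 CPM in wt_normal and 10.7 to 22.4 CPM in ko_normal, and at 6.19 to 13.8 CPM in wt_HFD and 15.7 to 22.8 CPM in ko_HFD (log2 change 1.05, adjusted p = 0.0467). Sc5d, the sterol C5-desaturase, and Dhcr7, which makes cholesterol from its immediate precursor, gave 0.68 (adjusted p = 0.0388) and 0.54 (adjusted p = 0.0421), and neither overlapped between the genotypes on either diet. These 4 enzymes act after lanosterol is formed. Upstream, Hmgcs1 gave 0.79 (adjusted p = 0.0616) and did not overlap either. Also upstream, Fdps was near 0, at -0.01, and Pmvk gave -0.64 (adjusted p = 0.122). Hsd17b7 and Ebp, which act after lanosterol as well, were near 0, at -0.02 and -0.03.

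Among 16 genes of sterol sensing and uptake, 5 rose, none fell and the median was 0.50. Srebf1, the SREBP-1 transcription factor of lipid synthesis, was at 24.6, 26.4 and 22.9 CPM in wt_normal and at 124, 79.6 and 56.2 CPM in ko_normal, and at 40.7, 53.4 and 30.3 CPM in wt_HFD and 84.2, 84.2 and 45.4 CPM in ko_HFD. The separation was wide on normal diet, while 1 ko_HFD library lay inside the wt_HFD range. Averaged over diets the log2 change was 1.30 (SE 0.22, adjusted p = 0.0167). Insig1, which retains the SREBP escort in the endoplasmic reticulum, Stard4 and Npc1, which move cholesterol inside the cell, and Scarb1, the HDL receptor, gave 0.60, 0.78, 0.62 and 0.52, with adjusted p from 0.0388 to 0.0419. For Insig1 the change was 1.03 on normal diet and 0.17 on HFD. The difference between diets had an unadjusted p of 0.00402 by edgeR and did not pass the test (adjusted p = 0.828).

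In both sterol lists the calls fell from 5 to at most 3 whichever library was left out. No cholesterol synthesis gene was called without wt_normal replicate 2, ko_normal replicate 3, wt_HFD replicate 2 or ko_HFD replicate 3, and between 1 and 3 were called without each other library. Of the sterol sensing genes, none was called without wt_normal replicate 3 and 1 to 3 without each of the others. With all libraries, 11 genes of each list had an unadjusted p under 0.05 by edgeR, as had 2700 of all 14433 genes. Voom called 8 of the cholesterol synthesis and 10 of the sterol sensing genes, against 898 of all 14433. With library totals only, and with a replicate block, 1 gene of each list was called. The medians moved less, from 0.30 to 0.48 for cholesterol synthesis and from 0.44 to 0.54 for sterol sensing over all alternatives.

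Of 18 genes of fatty acid and triglyceride synthesis, Fasn was called, with a list median of 0.37. Fasn, the fatty acid synthase, was at 36.7 to 47.4 CPM in wt_normal against 79.5 to 99.6 CPM in ko_normal, and at 55.6 to 68.2 CPM in wt_HFD against 72.9 to 130 CPM in ko_HFD. The ranges did not overlap on either diet (log2 change 0.88, SE 0.15, adjusted p = 0.0152), and the call was lost without wt_normal replicate 3. Mlxipl, the carbohydrate-responsive factor ChREBP, gave 0.73 (adjusted p = 0.0599), again without overlap. Thrsp and Scd1 had larger but scattered changes of 2.55 (adjusted p = 0.1) and 1.50 (adjusted p = 0.105): Thrsp ran from 46.9 to 938 CPM within ko_HFD alone. None of 18 genes of fatty acid oxidation and ketogenesis was called by edgeR, and their median was -0.09. Of the 18, 3 had an unadjusted p under 0.05, as had 2700 of all 14433 genes.

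**Figure D2:**
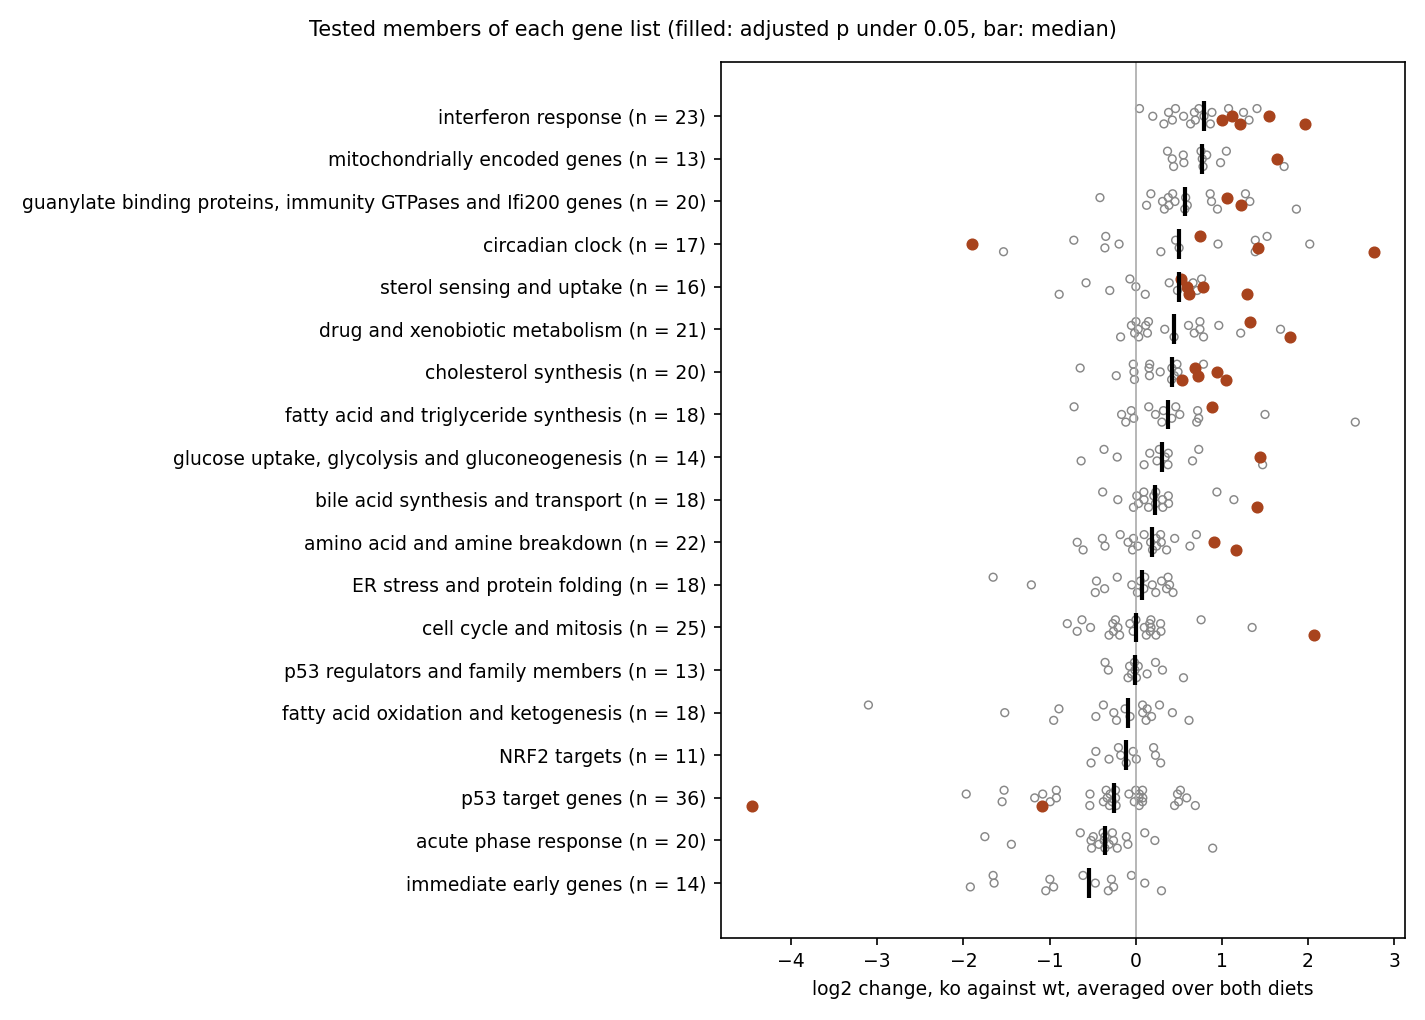
Log2 change of ko against wt averaged over both diets (x axis) for each tested member (points) of 19 gene lists, ordered by the list median (bar); filled points have an adjusted p under 0.05. The interferon list lies highest, with a median of 0.79, and the immediate early genes lowest, with -0.54 and no called gene.

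Slc2a2, the hepatic glucose transporter GLUT2, was at 51.6, 27.9 and 38.5 CPM in wt_normal and at 125, 156 and 163 CPM in ko_normal. It was at 91.9, 78.3 and 65.5 CPM in wt_HFD and at 124, 165 and 177 CPM in ko_HFD. All 6 ko libraries exceeded all 6 wt libraries, with similar levels in ko livers on both diets, and the log2 change was 1.45 (SE 0.17, adjusted p = 0.0019). It was the only called gene of 14 in glucose uptake, glycolysis and gluconeogenesis, whose median was 0.31. Pklr, liver pyruvate kinase, gave 1.47 (adjusted p = 0.0616) and G6pc, which releases free glucose, -0.63 (adjusted p = 0.179).

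Akr1d1, the steroid 5-beta-reductase of bile acid synthesis, was at 40.3, 40.2 and 54.0 CPM in wt_normal and at 110, 49.0 and 65.3 CPM in ko_normal. On HFD it was at 20.6, 16.3 and 13.3 CPM in wt and at 69.3, 67.4 and 74.3 CPM in ko. The genotypes were far apart on HFD and overlapped on normal diet. With a log2 change of 1.40 (adjusted p = 0.00469), Akr1d1 was the only called gene of 18 in bile acid synthesis and transport. Cyp7a1, the rate-limiting enzyme, gave 1.14 (adjusted p = 0.218).

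Ddah1, which breaks down the nitric oxide synthase inhibitor dimethylarginine, was at 42.6, 34.2 and 47.7 CPM in wt_normal and at 59.3, 72.1 and 69.6 CPM in ko_normal. It was at 19.8, 18.0 and 17.7 CPM in wt_HFD and at 46.1, 62.9 and 62.5 CPM in ko_HFD. The wt_HFD libraries were the lowest of all. Ddah1 thus had a log2 change of 1.16 (SE 0.12, adjusted p = 0.000897). Hoga1, an enzyme of hydroxyproline breakdown, was at 85.2 to 109 CPM in wt_normal and 142 to 170 CPM in ko_normal, and at 56.3 to 70.9 CPM in wt_HFD and 121 to 152 CPM in ko_HFD (log2 change 0.91, adjusted p = 0.00329). These were the called genes among 22 of amino acid and amine breakdown, whose median was 0.19. Slc2a2, Akr1d1, Ddah1 and Hoga1 each kept the call whichever library was left out.

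In drug and xenobiotic metabolism 2 of 21 genes rose, with a median of 0.45 and 18 of the 21 above 0. Over all 14433 genes 114 rose and 6968 were above 0. The list median was 0.10 on normal diet and 0.59 on HFD. Before adjustment 9 of the 21 had p under 0.05 by edgeR, as had 2700 of all 14433 genes. Cyp2a5, the coumarin 7-hydroxylase, was at 142, 206 and 220 CPM in wt_normal and at 682, 377 and 446 CPM in ko_normal, and at 157, 107 and 69.9 CPM in wt_HFD and 708, 459 and 346 CPM in ko_HFD. No ko library came near a wt library, and the log2 change was 1.79 (SE 0.25, adjusted p = 0.00557). Slco1a4, an organic anion transporter, gave 1.33 (adjusted p = 0.0398), with overlap on normal diet and none on HFD. The call of Cyp2a5 held in all 12 fits that left out 1 library and that of Slco1a4 in 2 of them. Both genes belong to families of similar sequence, so reads of relatives may be counted in them. The main drug-metabolising enzyme gene Cyp3a11 gave 0.75 (adjusted p = 0.0876), and Cyp2e1 0.00. Of 11 targets of the antioxidant factor NRF2 none was called by edgeR and 1 had an unadjusted p under 0.05, as had 2700 of all 14433 genes.

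Of 17 circadian clock genes, 3 rose and 1 fell by edgeR, against 114 and 54 of all 14433 genes. Before adjustment 12 of the 17 had p under 0.05, as had 2700 of all 14433 genes. DESeq2 called 6 higher and 2 lower, against 438 and 349 of 26011 genes. Voom called 8 higher and 2 lower, against 502 and 396 of 14433. Dbp, a clock output factor, was at 2.15, 13.5 and 2.04 CPM in wt_normal and at 191, 97.3 and 107 CPM in ko_normal, and at 83.6, 59.1 and 6.52 CPM in wt_HFD and 74.6, 125 and 112 CPM in ko_HFD. The ko libraries were high throughout, while the wt libraries ranged widely. On HFD the genotypes overlapped, with wt replicate 1 (83.6 CPM) above ko replicate 1 (74.6 CPM). The log2 change was 2.76 (adjusted p = 0.0419), from 4.46 on normal diet and 1.06 on HFD. The difference between diets had an unadjusted p of 0.0097 by edgeR and did not pass the test (adjusted p = 0.913). Per2, a repressor of the clock, was at 4.96 to 13.5 CPM in wt_normal and 27.6 to 39.0 CPM in ko_normal, and at 12.1 to 32.8 CPM in wt_HFD and 37.5 to 47.2 CPM in ko_HFD (log2 change 1.42, adjusted p = 0.0249). Arntl (Bmal1), the activator that Per2 opposes, went the other way, from 8.09 to 17.1 CPM in wt_normal against 1.04 to 3.19 CPM in ko_normal, and from 2.26 to 7.08 CPM in wt_HFD against 1.05 to 2.07 CPM in ko_HFD (log2 change -1.90, adjusted p = 0.0291).

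Per2 and Arntl did not overlap between genotypes on either diet. Hlf, a relative of Dbp, gave 0.75 (adjusted p = 0.0478). Further output and repressor genes were high without passing the test, such as Ciart at 2.02 (adjusted p = 0.11) and Nr1d1 at 1.39 (adjusted p = 0.0619), while Clock and Npas2, partners of Arntl, gave -0.36 (adjusted p = 0.347) and -1.53 (adjusted p = 0.266). No clock gene was called without ko_normal replicate 1, ko_normal replicate 3 or ko_HFD replicate 3. Clock transcripts vary over the day, and no label gives an hour of sampling for either genotype.

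Of 23 interferon response genes 5 rose, none fell, and all 23 had a log2 change above 0, with a median of 0.79. Irf7, the transcription factor that amplifies the response, was at 46.6, 44.2 and 49.8 CPM in wt_normal and at 65.4, 145 and 148 CPM in ko_normal, and at 81.4, 81.6 and 95.5 CPM in wt_HFD and 150, 169 and 159 CPM in ko_HFD. The genotypes did not overlap within a diet, with ko_normal replicate 1 below the other ko libraries. The log2 change was 1.12 (SE 0.18, adjusted p = 0.0124), and the call held whichever library was left out. The same library was the lowest of its group for Ifi44 (1.8 CPM against 3.65 and 4.64), Isg15 (13.6 against 35.5 and 38.0), Ifit3 (11.8 against 20.4 and 22.9) and Xaf1 (7.71 against 9.53 and 18.0). These are classical interferon-induced genes, and their log2 changes were 1.96, 1.55, 1.21 and 1.0, with adjusted p of 0.0294, 0.0456, 0.0385 and 0.0388. Before adjustment 19 of the 23 had p under 0.05 by edgeR, as had 2700 of all 14433 genes. After adjustment DESeq2 called 13 and voom 18, against 787 and 898 over all genes. Without ko_normal replicate 1, 8 of the 23 were called by edgeR, and 1 was called without any of wt_normal replicate 1, wt_normal replicate 3, ko_normal replicate 3, wt_HFD replicate 2, wt_HFD replicate 3, ko_HFD replicate 2 or ko_HFD replicate 3.

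Guanylate binding proteins, which act against intracellular pathogens, were listed with other immunity GTPases and the Ifi200 genes. Of 20 tested members 2 rose, none fell, 19 were above 0 and the median was 0.58. Over all 14433 genes 114 rose, 54 fell and 6968 were above 0. Before adjustment 11 of the 20 had p under 0.05 by edgeR, as had 2700 of all 14433 genes. Gbp3 was at 3.14 to 3.81 CPM in wt_normal and 5.50 to 9.65 CPM in ko_normal, and at 4.21 to 4.48 CPM in wt_HFD and 6.60 to 13.4 CPM in ko_HFD, so that all ko libraries were above all wt libraries (log2 change 1.22, adjusted p = 0.0144). Its neighbour Gbp7 gave 1.06 (adjusted p = 0.0418), and the 2 genes are similar enough for reads to be shared. With 1 library left out, Gbp3 kept its call in 12 of 12 fits and Gbp7 in 3. Ifi208, an Ifi200 gene outside the list, had 3 counts over the 6 wt libraries and 84 over the 6 ko libraries, a ratio of summed CPM of 28.1 (exact 95% interval 9.30 to 139, for counting error only). It had adjusted p = 0.0152 and, like the other genes of this cluster, has close copies.

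**Figure D3:**
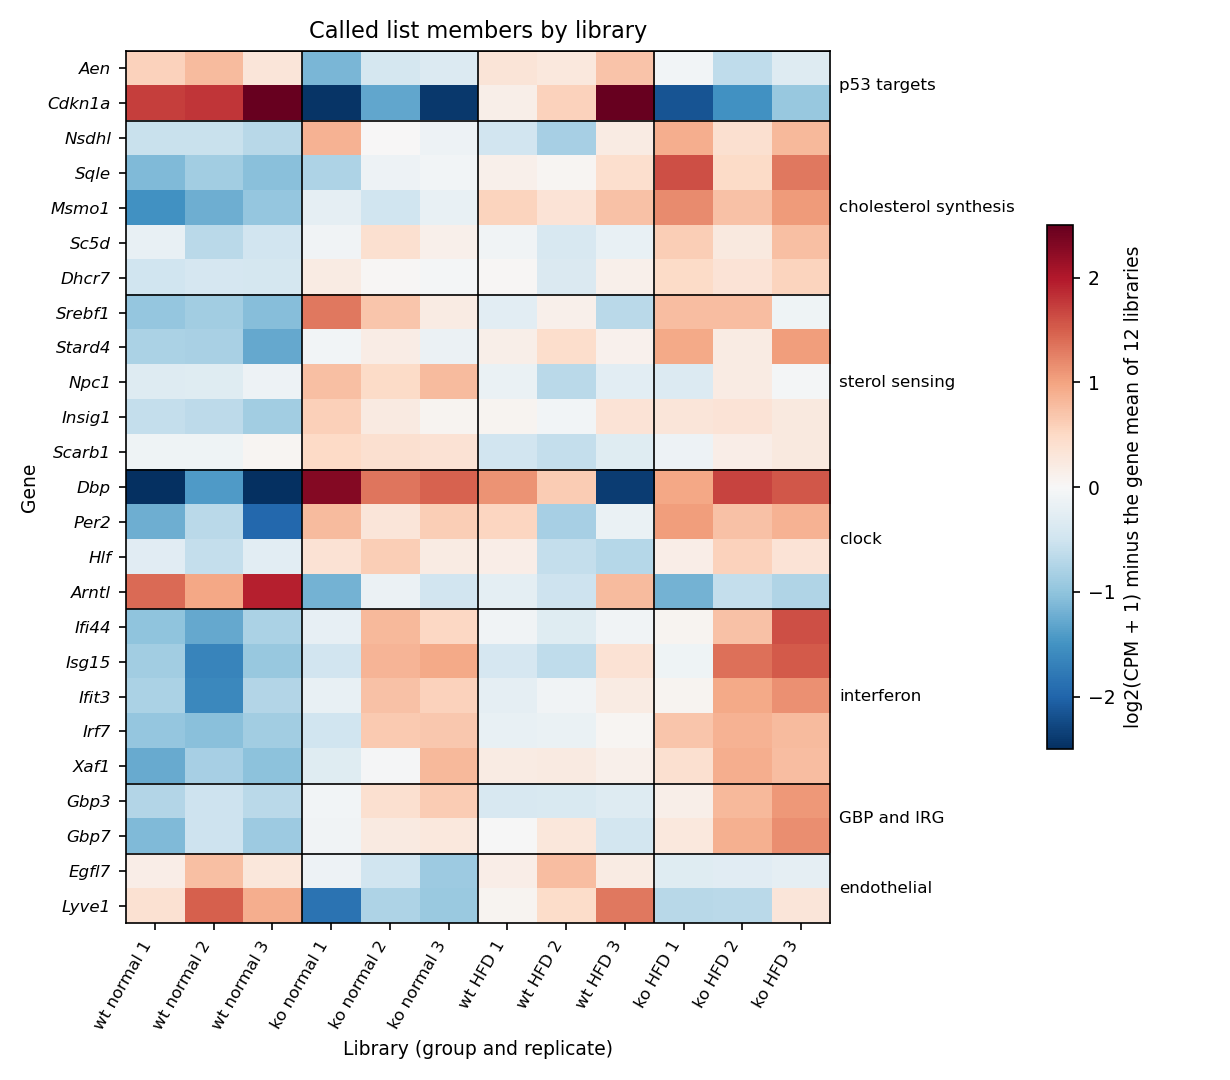
Called members of 7 gene lists (rows) in the 12 libraries (columns), as log2(CPM + 1) minus the mean of the gene over the 12 libraries, from blue (lower) to red (higher). The 5 interferon genes are lowest in the 3 wt_normal libraries, and Cdkn1a is highest in the third wt library of each diet.

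The largest rises without overlap on either diet included 2 mitochondrial tRNA genes. The gene mt-Tg had 0 counts in the 6 wt libraries and 295 in the 6 ko libraries, at least 98.8-fold higher against a floor of 3 counts over the wt group. The gene mt-Tr was at 0 to 0.0952 CPM in wt libraries and 0.709 to 3.07 CPM in ko libraries (adjusted p = 0.00233). Between them lies mt-Nd3, a subunit of respiratory complex I, at 11.5 to 22.8 CPM in wt libraries and 27.7 to 87.1 CPM in ko libraries (log2 change 1.63, adjusted p = 0.0256). It was the only called gene of the 13 mitochondrially encoded protein genes, all of which were above 0 with a median of 0.77. Without ko_normal replicate 1 that median was 0.32 and mt-Nd3 kept its call, which it had in 6 of the 12 fits that left out 1 library. Without that library and wt_normal replicate 2 together, mt-Nd3 gave 1.24 (adjusted p = 0.0764). The mitochondrial tRNA genes have copies in the nuclear genome and flank other transcripts, so their counts are uncertain.

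Vcpkmt, which methylates the chaperone VCP, was at 1.23, 0.809 and 1.17 CPM in wt_normal and at 3.24, 5.59 and 4.96 CPM in ko_normal. It was at 1.68, 1.03 and 1.76 CPM in wt_HFD and at 4.15, 4.20 and 5.20 CPM in ko_HFD. Levels were alike on both diets within a genotype, and the log2 change was 1.85 (SE 0.23, adjusted p = 0.00258). Cenpm, a centromere protein, was at 0.123 to 0.460 CPM in wt_normal and 1.68 to 2.85 CPM in ko_normal, and at 1.32 to 1.61 CPM in wt_HFD and 2.32 to 3.68 CPM in ko_HFD (log2 change 2.07, adjusted p = 0.00852). It was the only called gene of 25 in cell cycle and mitosis, whose median was 0.00. The proliferation marker Mki67 gave 0.24 (adjusted p = 0.787) and Ccnd1, cyclin D1, -0.27 (adjusted p = 0.7).

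Clec2h, a C-type lectin, was at 0.623 to 1.81 CPM in wt libraries and 2.30 to 14.4 CPM in ko libraries (log2 change 2.43, adjusted p = 0.00852). Car3, an abundant carbonic anhydrase, was at 158 to 407 CPM in wt_normal and 503 to 1176 CPM in ko_normal, and at 158 to 225 CPM in wt_HFD and 468 to 1607 CPM in ko_HFD (log2 change 2.09, adjusted p = 0.0125). Clec2h, Cenpm, Vcpkmt and Car3 kept their calls whichever library was left out. Inmt, an amine methyltransferase, and Ncam2, a cell adhesion molecule, gave 1.66 (adjusted p = 0.0444) and 1.87 (adjusted p = 0.0338), and were called in 1 and 3 of those 12 fits. Lrmda was at 0 to 0.204 CPM in wt libraries and 0.399 to 1.52 CPM in ko libraries (adjusted p = 0.024).

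Among the falls, Igfbp1, an insulin-regulated binding protein of growth factors, was at 97.2, 113 and 177 CPM in wt_normal and at 21.3, 22.6 and 29.5 CPM in ko_normal. It was at 151, 249 and 989 CPM in wt_HFD and at 95.6, 9.84 and 12.3 CPM in ko_HFD. Each ko library lay below every wt library. The log2 change was -2.98 (SE 0.60, adjusted p = 0.0385), and the call held in 3 of the 12 fits that left out 1 library. Egln3, the oxygen-sensing prolyl hydroxylase PHD3, was at 8.28 to 19.6 CPM in wt_normal and 2.90 to 6.24 CPM in ko_normal, and at 11.7 to 17.2 CPM in wt_HFD and 4.67 to 7.15 CPM in ko_HFD (log2 change -1.44, adjusted p = 0.0167).

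Srp54a encodes a subunit of the signal recognition particle and has near-identical copies. It was at 0.387 to 1.48 CPM in wt libraries and 0 to 0.251 CPM in ko libraries (log2 change -3.44, adjusted p = 0.0105). Further protein-coding genes fell without overlap within a diet. Csrp1, a muscle and stellate cell LIM protein, gave -1.79 (adjusted p = 0.0347) and Dpysl3, a cytoskeletal regulator, -1.77 (adjusted p = 0.0347). Csgalnact1, which starts chondroitin sulfate chains, gave -2.08 (adjusted p = 0.0307). Nbea, Plcd3, a phospholipase C, and Slc25a53, a mitochondrial carrier, gave -1.85, -1.84 and -1.57. Each of these 6 genes lost its call in at least 8 of the 12 fits that left out 1 library. All 6 were highest in replicate 2 of wt_normal and in replicate 2 of wt_HFD within those groups. In these libraries Plcd3 was at 7.24 and 12.1 CPM and Csrp1 at 19.9 and 23.2 CPM.

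Among markers of cells other than hepatocytes, edgeR called genes in the endothelial list and in none of the others. Of 13 markers of liver endothelial cells 2 fell, none rose, and none had a log2 change above 0, with a median of -0.65. Their summed level was 551 to 645 CPM in wt_normal and 284 to 461 CPM in ko_normal, and 403 to 528 CPM in wt_HFD and 295 to 440 CPM in ko_HFD. Lyve1, a hyaluronan receptor of sinusoidal endothelium, gave -1.82 (adjusted p = 0.0345) and Egfl7, a secreted endothelial factor, -0.81 (adjusted p = 0.0388). Of the 13, 11 had an unadjusted p under 0.05 by edgeR, as had 2700 of all 14433 genes. Voom called 8 of the 13, against 898 of all 14433. Pecam1, Stab1 and Stab2, the defining markers, gave -0.86, -0.35 and -0.40 and did not pass the test. No endothelial marker was called without wt_normal replicate 2, wt_normal replicate 3, ko_normal replicate 3, wt_HFD replicate 3, ko_HFD replicate 1 or ko_HFD replicate 2. In whole liver, fewer endothelial cells and less of these RNAs per cell cannot be told apart.

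Of 14 tested markers of stellate cells and fibrosis none was called by edgeR, with a median of -0.81 and 1 above 0. Their sum was 251 to 909 CPM in wt_normal and 151 to 163 CPM in ko_normal, and 126 to 432 CPM in wt_HFD and 128 to 218 CPM in ko_HFD, so that the genotypes were apart on normal diet only. Des, desmin, was at 547 CPM in wt_normal replicate 2 and 70.5 CPM in wt_HFD replicate 2, and at 3.92 to 17.9 CPM in the other libraries. Of the 14, 6 had an unadjusted p under 0.05 (2700 of all 14433 genes), voom called 1 (898 over all genes) and DESeq2 2 (787). The falls of Csrp1, Dpysl3, Csgalnact1, Nbea, Plcd3 and Slc25a53 stand beside these sums. The part of the makeup of the tissue in these falls was not tested.

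The 14 hepatocyte markers had a median of 0.14 and summed to 69918 to 102794 CPM in the wt libraries and 106194 to 126562 CPM in the ko libraries, without overlap. Alb, serum albumin, is part of this sum, and the sum without it was not taken. Alb was at 17789 to 28003 CPM in wt and 36294 to 45464 CPM in ko libraries (log2 change 0.86, adjusted p = 0.0391). Apoa1, apolipoprotein A-I, gave 0.60 (adjusted p = 0.0892). The call of Alb held in 3 of the 12 fits that left out 1 library and was lost with a replicate block. Further hepatocyte markers changed less: Apob gave 0.12, Cyp2e1 0.00 and Cps1 -0.18. All rises of hepatocyte genes given above stand beside this sum, and its part in them was not tested. The 14 markers of Kupffer cells and macrophages had a median of 0.03, no call by edgeR and none with an unadjusted p under 0.05. The 8 tested markers of B cells, 6 of T and NK cells, 4 of neutrophils, 5 of cholangiocytes, 2 of adipocytes and 2 of pancreas had no call by edgeR either, with unadjusted p under 0.05 for 1 T and NK cell, 1 cholangiocyte and 2 adipocyte markers. The 10 tested skeletal muscle markers had a median of -5.18, which was -1.0 without wt_normal replicate 2. None of the 10 was called by edgeR, all 10 had an unadjusted p under 0.05, and all 10 were called without the filter on low counts. Of the 20 acute phase genes edgeR called none (median -0.36, 1 with unadjusted p under 0.05), nor of the 18 of ER stress (0.07, 6 such genes). It called none of the 14 immediate early genes either (4 such genes), whose median moved from -0.54 to -0.06 without wt_HFD replicate 3. These averages join unlike medians on normal diet and HFD. They were 0.09 and -0.60 for acute phase, 0.58 and -0.40 for ER stress and -0.19 and -1.20 for immediate early genes. None of 4 sex-linked or 13 sex-biased liver genes was called by edgeR, 2 and 3 had an unadjusted p under 0.05, and DESeq2 and voom each called 1 gene in each list. Over all genes, 2700 of 14433 had an unadjusted p under 0.05 by edgeR. DESeq2 called 787, voom 898 and edgeR without the filter 644.

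**Figure D4:**
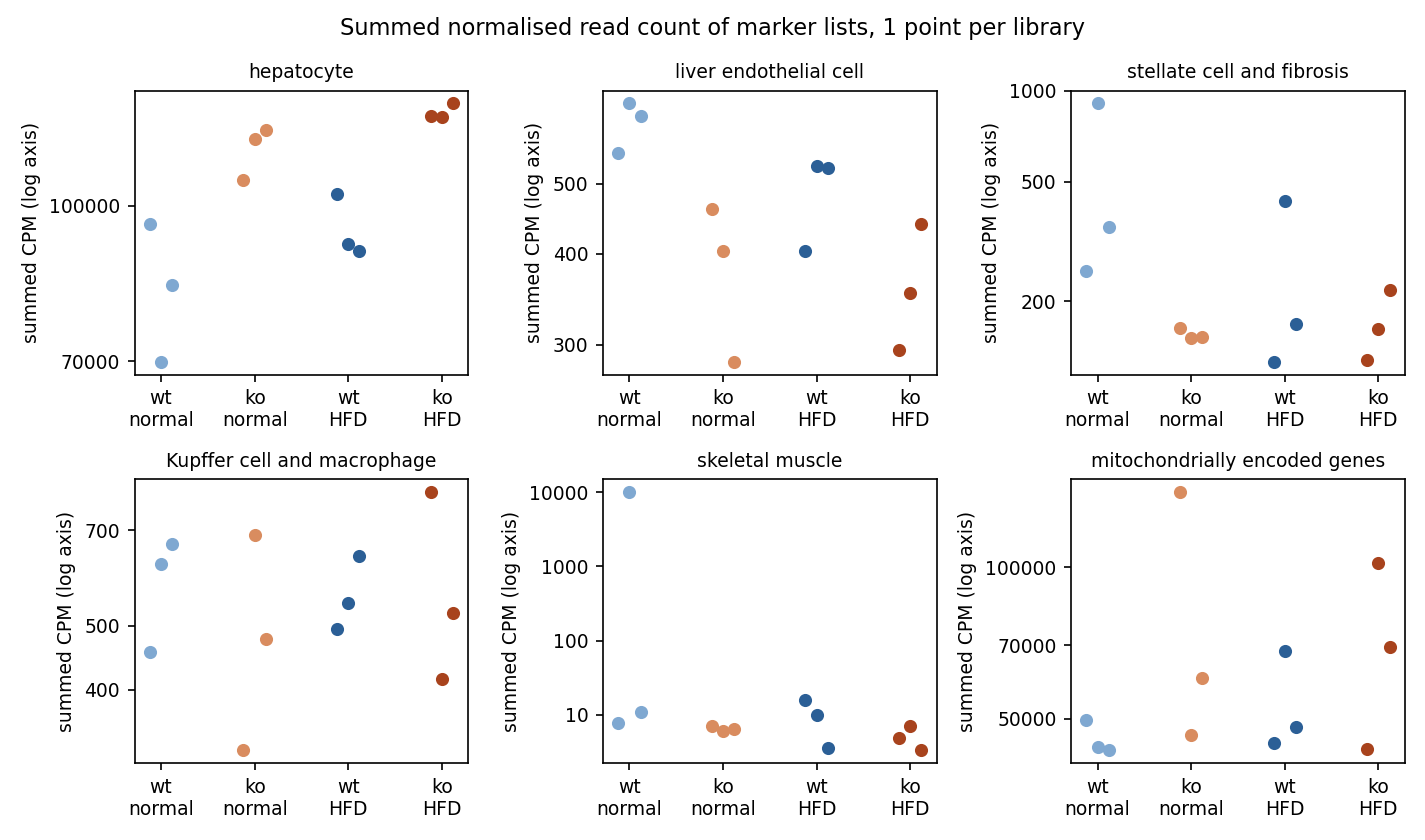
Summed CPM (log axes) of 5 marker lists and of the mitochondrially encoded genes in each of the 12 libraries (points), in 4 groups of 3. The hepatocyte sum is higher in all ko than in all wt libraries, the skeletal muscle sum stands out in wt_normal replicate 2 alone, and the mitochondrial sum is highest in ko_normal replicate 1.

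An average over diets can hide a difference between them, so the change of the ko effect with diet was tested in the same fit. No gene was called (0% of 14433) by edgeR, 725 genes had an unadjusted p under 0.05, and the smallest adjusted p was 0.0587. DESeq2 called 20 genes and voom 1. The gene with the smallest p was Serpina12, which encodes the adipokine vaspin. It was at 25.7, 14.5 and 13.2 CPM in wt_normal and at 108, 121 and 89.8 CPM in ko_normal, but at 213, 264 and 183 CPM in wt_HFD and at 200, 170 and 221 CPM in ko_HFD. Its average log2 change of 1.21 (adjusted p = 0.00846) was thus a rise of 2.58 on normal diet and -0.16 on HFD. Foxq1, a forkhead factor, gave 2.43 on normal diet and -0.66 on HFD (adjusted p of the difference = 0.217), and Cdk5rap3 0.61 and -0.54 (adjusted p of the difference = 0.675), and neither had a called average.

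Among the 168 genes called for the average, 33 had an unadjusted p of the difference under 0.05 by edgeR, against 725 of all 14433 genes. The larger change was on normal diet for 110 of the 168 and on HFD for 58, a count not made over all genes tested. Some of the widest gaps were in falls, in genes chosen here after their values were seen. Penk, the enkephalin precursor, gave -6.06 on normal diet and -1.65 on HFD, Cpe, carboxypeptidase E, -5.03 and -0.78, and Gsn, the actin-severing protein gelsolin, -2.85 and -0.37. All 3 were highest in wt_normal replicate 2, at 3.14, 15.6 and 225 CPM. Ddah1 and Akr1d1 leaned the other way, with 0.69 and 0.73 on normal diet and 1.63 and 2.07 on HFD. Trp53 gave -4.35 and -4.30.

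**Figure D5:**
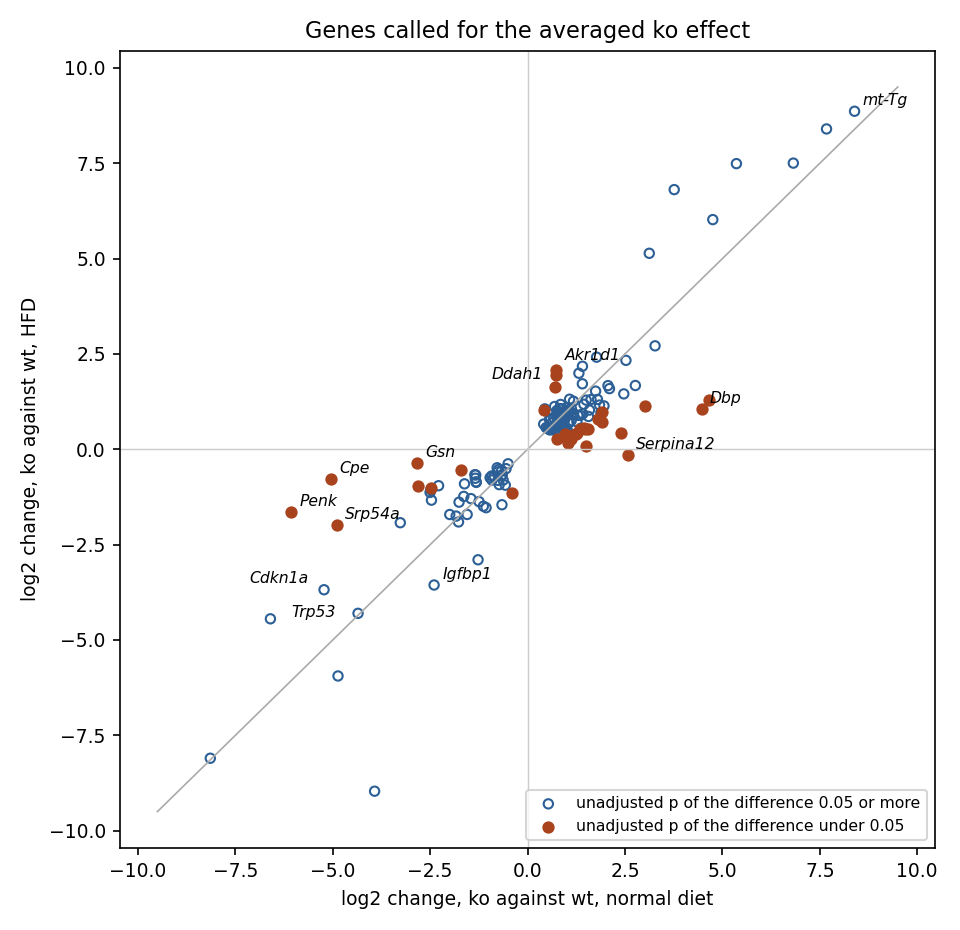
Log2 change of ko against wt on normal diet (x axis) and on HFD (y axis) for the 168 genes called for the average; filled points have an unadjusted p of the difference under 0.05 and the diagonal marks equal changes. Serpina12 is high on normal diet and near 0 on HFD, Penk, Cpe and Gsn lie above the diagonal, and Trp53 lies on it.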

How the data were processed

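Each library was deposited by the authors as whole-number read counts, 1 per gene. CASAVA 1.8 and Bowtie 0.12.2 and the builds mm8 and mm9, of unstated role, come from the submitters' processing notes. How reads were counted per gene, with which annotation and strand setting, is not given in the sources used here. Counts were used as deposited: 52403 of 52636 gene identifiers matched a symbol. Replicate pairs differed beyond counting error (chi-square per degree of freedom 39.5 to 199).

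The members and the 32 gene lists (513 entries) were chosen with earlier results of these data known. Genes were kept by filterByExpr and tested in R 4.3.3 with edgeR 4.0.16 (TMM, quasi-likelihood F-test, two-sided, 8 residual and 4.66 prior degrees of freedom) in 1 fit of the 4 groups, with Benjamini-Hochberg adjustment. The averaged effect was the mean of the 2 within-diet contrasts. Named were Trp53, Cdkn1a and Sqle, up to 12 called rises and 12 falls without overlap on either diet (no predicted models, at most 2 per family), up to 4 called members of each list, the p53 target and cholesterol genes with the smallest p, and the 3 genes with the smallest p of the difference between diets; list members named beside them and genes said to be chosen later fall outside this rule. Alternatives were other scalings and filters, an additive model, a replicate block, DESeq2 1.42.0, voom of limma 3.58.1, leaving out each library, and, chosen after seeing the data, leaving out 2. The fit was tested on simulated data. Sqle, Trp53 and Cdkn1a were also tested by exact permutation on log2(CPM + 1). RefSeq promoter windows (GRCm38.p6) gave the sequences. Floors and intervals cover counting error only. Some members of the gene lists enter the counts and medians but are not reported here by name.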

Additional observations from a re-analysis of the deposited data

How the results depend on the processing

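The count of 168 called genes was 157 with the replicate block, 171 with RLE scaling, 126 with library totals only, 175 with a minimum CPM of 1, 156 in the additive model and 171 without mitochondrial and muscle genes. It was 644 with no filter, 787 by DESeq2 and 898 by voom, which held 165 of the 168, and 45 to 254 with 1 library left out. It was 48 without the 2 libraries highest in muscle and mitochondrial counts. For the difference between the diets the count of 0 was 13 with no filter, 20 by DESeq2, 1 by voom, 0 with the replicate block and 0 to 1 with 1 library left out. The cause was not tested.

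Of the 53 called named genes, 14 kept the call in every alternative that tested them, 17 whichever library was left out, and none changed sign. Cdk5rap3, not called at 0.04, gave -0.033 with library totals and -0.0050 to 0.108 with 1 library left out (-0.0050 without ko_HFD replicate 1, -0.0031 without ko_normal replicate 2). Whether the replicate numbers pair the libraries was not settled. Within diets, 1 of 6 same-number pairs of ko and wt libraries correlated above 0.1, the third replicates on HFD (0.33). Of the ko libraries, 2 correlated best with the wt library of their own number, and libraries were not compared across diets. The replicate block ended the calls of Sqle and 10 others. By permutation, Sqle ko against wt within diets gave 0.0312 for same-number differences, the smallest p this paired test allows, and 0.005 to 0.025 with 1 library left out. The genotypes of Sqle do not overlap within a diet, so leaving out 1 library cannot undo the separation, and edgeR kept its call in 2 of 12 such fits.

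Genes of few counts, such as Ifi208, Lrmda and mt-Tr, are limited by depth.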

Other observations

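Some called genes stand close together on their chromosome, a pattern noticed after the values were seen. On chromosome 12, 12 of 529 tested genes were called (2.27%), against 1.16% of all genes tested. They included Egln3, Snx6, a sorting nexin, and Srp54a, which stand within 9 tested genes of each other, with log2 changes of -1.44, -0.76 and -3.44. The predicted gene Gm47399, 3 tested genes before Egln3, went the other way (6.42). Vcpkmt (1.85), the dynactin subunit Actr10 (-0.79), the predicted gene 4930404H11Rik (-6.45), Daam1, a regulator of actin (0.75), and the predicted gene Gm4756 (1.03) stand close together farther along, in both directions. Actr10 was at 29.2 to 36.9 CPM in wt and 16.5 to 22.4 CPM in ko libraries. On the mitochondrial genome the 3 called genes of 29 tested, mt-Tg, mt-Nd3 and mt-Tr, stand next to each other.

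Predicted gene models, which the rule for named genes left out, made up 16 of the 168 called genes and held some of the largest changes. Their share of all genes tested was not counted, so the 16 cannot be set against it. Gm42047 on chromosome 8 was at 8.53 to 156 CPM in wt and 0.109 to 0.633 CPM in ko libraries (adjusted p = 0.000411). Gm47917 went the other way, from 0 to 0.0567 CPM in wt to 2.15 to 12.1 CPM in ko libraries (adjusted p = 0.000411). Among protein-coding genes outside the rule, Serpine2, a secreted protease inhibitor, was at 30.3 to 66.9 CPM in wt and 12.7 to 26.6 CPM in ko libraries (log2 change -1.31, adjusted p = 0.0019). The neighbours Apol9a and Apol9b, interferon-responsive apolipoprotein L genes of similar sequence, rose by 1.50 and 1.47 (adjusted p = 0.00233 and 0.000897), with 87.4 to 159 CPM of Apol9b in wt and 257 to 337 CPM in ko libraries.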
